A study of Mus musculus with 18 samples.

Results

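The 10 genes studied here belong to the bone morphogenetic protein (BMP) pathway and were followed in mouse small intestinal crypts after induced deletion of Prmt1, which encodes the main protein arginine methyltransferase of mammalian cells. They were the ligand Bmp2, the receptor Bmpr1a, the receptor-activated SMADs Smad1 and Smad5, the inhibitors Smad6, Smad7 and Bambi, and the target genes Id1, Id2 and Id3. The members were chosen by gene symbol, with earlier results of these data known, and 10 of the 55335 genes in the counts table carried these symbols. All 10 passed the filter on low counts, which left 21349 genes for testing. KO mice carried Prmt1 fl/fl and Vil-CreERT2, a tamoxifen-activated Cre driven by the villin promoter in the gut epithelium. WT mice were Prmt1 fl/fl littermates without the Cre, so the floxed alleles and tamoxifen were common to both genotypes, whereas the Cre was present in KO mice alone. Mice of 8 to 12 weeks received 2 mg of tamoxifen a day, as 2 injections before collection on day 2 and as 5 injections before days 7 and 14, counted from the first injection. Each of the 6 groups (KO and WT on days 2, 7 and 14) had 3 libraries, 1 per mouse, made from crypts released with EDTA and passed through a strainer.

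BMP ligands bind pairs of type I and type II receptors, which phosphorylate SMAD1, SMAD5 and SMAD9. These enter the nucleus with SMAD4 and switch on target genes, among them the Id genes and the pathway's own inhibitors. In the small intestine BMP signalling is strongest toward the villus and is held low at the crypt base by antagonists secreted by the mesenchyme. It restrains stem cells and favours differentiation, and loss of BMPR1A leads to juvenile polyposis.

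Total counts ranged from 12844642 to 31493484 per library. Prmt1 itself was lower in KO libraries on every day, at 54.1% of WT on day 2 (log2 fold change −0.89, SE 0.14, adjusted p = 0.0264), 66.6% on day 7 (−0.59, SE 0.14, adjusted p = 0.00675) and 60.9% on day 14 (−0.72, SE 0.14, adjusted p = 0.00329), and the KO libraries lay below the WT libraries each time. Unless another tool or setting is named, adjusted p-values are Benjamini-Hochberg values over the 21349 genes from edgeR's quasi-likelihood test, and a gene was called where this value was under 0.05. Epithelial identity was checked with 7 markers such as Epcam, Cdh1 and Vil1, which do not separate crypt from villus and whose summed level lay between 4186 and 8798 CPM (read counts scaled to the TMM-normalized library size) in all libraries. The KO day 7 library of replicate 1 stood apart from the other KO day 7 libraries, with a summed level of 298 CPM for 5 stem cell markers (Lgr5, Olfm4, Ascl2, Smoc2 and Axin2) where the others had 764 and 779 CPM. Member calls of day 7, the change in KO effect of Bambi and the correlations of members with marker sums are therefore also given without it.

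Compared per length of exon, the Id genes were at both the top and the middle of the set. Id1 had the highest level in all 6 groups, with group means from 22.7 to 42.4 CPM per kb, followed by Id3 with 16.9 to 26.5 CPM per kb and Bmpr1a with 14.0 to 20.9 CPM per kb. The libraries of Id3 and Bmpr1a overlapped in every group except KO day 7 and KO day 14. Smad7 and Smad1 came next, between 6.9 and 8.8 CPM per kb in group mean, and overlapped each other in every group except KO day 7. Id2 ranked sixth in WT on day 2 at 6.23 CPM per kb and eighth in WT on day 7 at 3.76 CPM per kb, where it overlapped Smad6 above it and Bmp2 below it. Smad5, Smad6 and Bmp2 filled most of the remaining places, each below 6 CPM per kb in group mean. Bambi had the lowest level in every group except WT day 14, where Bmp2 had a slightly lower mean and the libraries of both overlapped. Over the 18 libraries the raw counts of the members ran from 53 for Bambi to 3987 for Bmpr1a, so no member was near the counting floor.

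**Figure D1:**
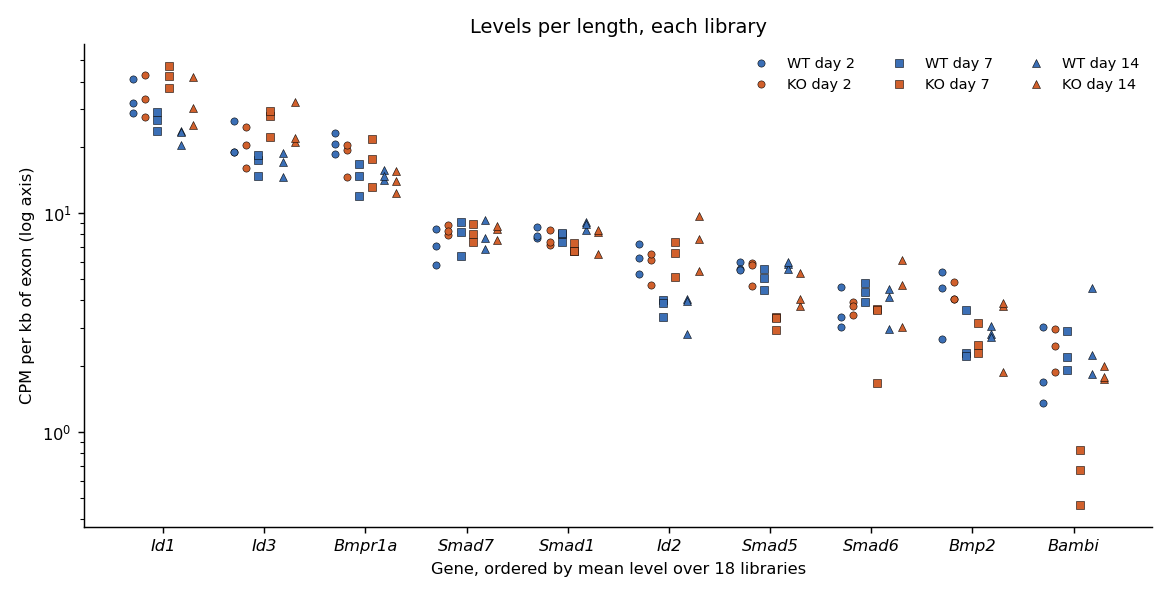
The y axis shows the level of each member in CPM per kb of exon on a log axis, and the x axis the 10 genes in order of their mean over 18 libraries. Each point is 1 library, with color for genotype and symbol for day. Id1 is at the top and Bambi at the bottom, and the 3 KO day 7 libraries of Bambi lie below every other point, from 0.464 to 0.826 CPM per kb.

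On day 2 none of the 10 members passed the test of KO against WT. The quasi-likelihood test called 0 of 10, 0 had an unadjusted p under 0.05, and DESeq2 called 0 as well. Across all genes tested 0.0328% were called on that day and 3.33% had an unadjusted p under 0.05. KO and WT libraries overlapped for all 10 members, against 8.16% of all genes in which they did not. The log2 fold changes lay between −0.20 for Bmpr1a (95% interval −0.56 to 0.17) and 0.27 for Bambi (−0.41 to 0.95). The intervals of Id1 (−0.35 to 0.41), Id2 (−0.54 to 0.31) and Id3 (−0.46 to 0.31) did not reach the changes later measured on day 7, which carry an error of their own. The change in KO effect between these days passed the quasi-likelihood test for none of the 3 Id genes (adjusted p = 0.171, 0.0968 and 0.133). Prmt1 was already lower in these KO libraries.

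By day 7 the pathway's members had split. The targets Id1, Id2 and Id3 rose in KO crypts by 1.57- to 1.69-fold, the receptor-activated SMAD gene Smad5 fell to 63.7% of WT, and the decoy receptor gene Bambi fell to 28% of WT. Thus 5 of the 10 members were called, 3 higher and 2 lower, when 17.3% of all genes were called on that day, 7.11% higher and 10.2% lower. The same 5 had an unadjusted p under 0.05, as did 29.9% of all genes. KO and WT libraries did not overlap for 7 members, the same 5 plus Smad1 and Smad6, and for 33.6% of all genes (15.9% above and 17.7% below WT). The median log2 fold change of the 10 members was 0.00 and that of all genes 0.02. Since the members were chosen with earlier results of these data known, the shares of all genes are a background and not a test. On day 14 only Id2 was called among the members by the quasi-likelihood test, when 7.92% of all genes were called, 3.23% higher. Deviations of same-numbered KO and WT libraries were correlated at 0.164 to 0.332 on that day, and at up to 0.383 between different days. A replicate block within each day was added after seeing these data, and the labels do not give it. With it 3 members were called, Id1, Id2 and Id3, all higher, with 9.86% of all genes called and 4.53% higher. Without the block, 4 members (Id1, Id2, Id3 and Smad5) and 21.6% of all genes had an unadjusted p under 0.05. On that day KO and WT libraries did not overlap for 5 members (Id1, Id2 and Id3 above, Smad1 and Smad5 below) and for 26.5% of all genes (12.4% above and 14.1% below).

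**Figure D2:**
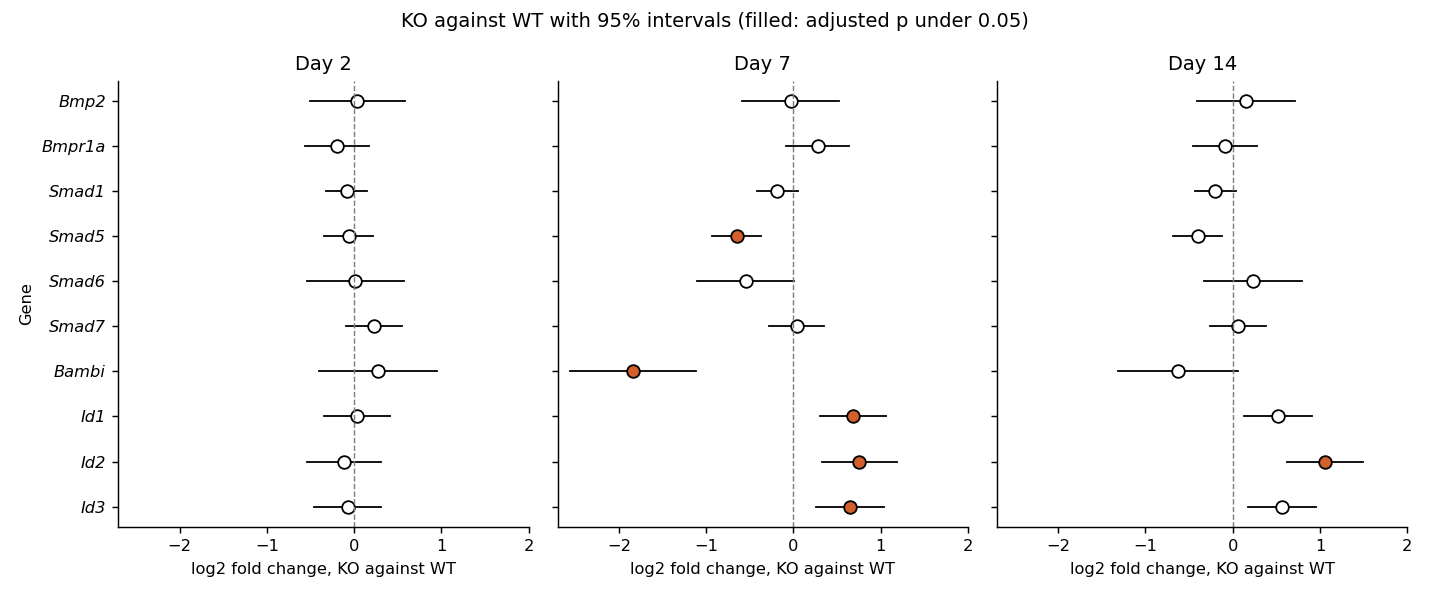
Each panel gives 1 day. The x axis is the log2 fold change of KO against WT and the y axis lists the members, with 95% intervals as lines and filled points where the adjusted p was under 0.05. On day 2 all intervals include 0, on day 7 Id1, Id2, Id3, Smad5 and Bambi are filled, and on day 14 Id2 alone is filled.

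The ligand and the receptor showed no difference between genotypes that passed the test. Bmp2, on chromosome 2, encodes a ligand made by the differentiated epithelium. On day 7 its levels were 8.17, 12.9 and 7.93 CPM in WT and 8.85, 8.18 and 11.2 CPM in KO, and the groups overlapped fully (log2 fold change −0.03, 95% interval −0.59 to 0.53, adjusted p = 0.957). On day 14 the difference was 0.15 (−0.41 to 0.71, adjusted p = 0.82). Bmpr1a, at chr14:34410734-34503341, encodes the type I receptor through which the gut epithelium responds to BMPs. Its levels on day 7 were 94.4, 106 and 76.3 CPM in WT and 139, 112 and 83.8 CPM in KO, so that the lowest KO library lay inside the WT range (log2 fold change 0.28, −0.09 to 0.64, adjusted p = 0.31). On day 14 the difference was −0.09 (−0.45 to 0.28, adjusted p = 0.842). An exon of Bmpr1a shares 290 bases, 4.57% of its exon length, with Gm17110 on the opposite strand. Reads were counted without strand, so reads of these bases cannot be told apart, but Gm17110 had 41 to 168 counts where Bmpr1a had 1162 to 3987.

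SMAD1 and SMAD5 are the proteins that carry the BMP signal from the receptor to the nucleus. Smad5, at chr13:56703010-56742377, had 37.4, 41.5 and 33.1 CPM in the WT day 7 libraries and 21.6, 24.9 and 24.6 CPM in the KO day 7 libraries. Every KO library was far below every WT library, and the KO libraries were close to each other. The fall was 0.65 on the log2 scale (−0.65, SE 0.13, adjusted p = 0.00242). With each of the 6 libraries left out in turn the value stayed between −0.73 and −0.57 and the adjusted p between 0.00328 and 0.0231. On day 14 Smad5 had 43.5, 41.2 and 44.6 CPM in WT and 28, 39.7 and 30.2 CPM in KO. The KO libraries again lay below the WT libraries, one of them only just, and the difference did not pass the test (−0.40, SE 0.13, adjusted p = 0.076). It did pass without the KO day 14 library of replicate 2 (−0.55, adjusted p = 0.025). Smad5 shares 100 bases of exon with Gm27301, which had 2 to 19 counts.

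Smad1, at chr8:79338395-79399518, had 50.1, 50.9 and 46.4 CPM in WT and 42.0, 42.1 and 45.8 CPM in KO on day 7. The KO libraries lay below the WT libraries by a small margin (−0.18, 95% interval −0.42 to 0.05, adjusted p = 0.294). The day 14 libraries were arranged in the same way, from 52.8 to 57.3 CPM in WT and from 40.6 to 52.5 CPM in KO (−0.20, −0.43 to 0.04, adjusted p = 0.328). The 2 paralogous SMAD genes thus differed in outcome by the threshold, but the difference between their changes was not tested.

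A 149-base stretch around a RefSeq start site of Smad5 is shown here because it holds 2 of the motifs searched in the members' promoters. It lies at chr13:56702890-56703038 on the plus strand of GRCm38.p6, from 120 bases before the start to 28 bases after it. The capitals mark an E-box (CANNTG), the site of the basic helix-loop-helix factors that Id proteins hold in check, and the element GGCGCC, which is GC-rich and bound by SMAD1 and SMAD5.
Smad5: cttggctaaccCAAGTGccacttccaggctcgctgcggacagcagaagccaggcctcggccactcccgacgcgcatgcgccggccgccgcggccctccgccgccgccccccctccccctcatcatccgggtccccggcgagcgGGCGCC

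Promoter windows of 250 bases before to 50 bases after the RefSeq start were at hand for 6 of the 10 members (Id2, Id3, Smad1, Smad5, Smad6 and Bmpr1a). Both strands were searched for 4 motifs. GGCGCC was present in 11.9% of all 32851 windows and in those of Id2, Smad5 and Bmpr1a. CANNTG was present in 72.3% of all windows and in those of Id2, Smad5 and Smad6. Smad5 had 3 overlapping or neighbouring windows for different starts, and the one that lies farthest downstream held neither motif. The windows of Id3 and Smad1 held none of the 4.

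Of the 3 inhibitor genes only Bambi passed the test on day 7, and none did on day 14. SMAD6 blocks the BMP-activated SMADs and SMAD7 blocks both BMP and TGF-beta signalling at the receptor, and both genes are classical targets of the signal they oppose. Smad6, at chr9:63953076-64022059, had 14.0, 12.6 and 15.5 CPM in the WT day 7 libraries and 5.38, 11.7 and 11.6 CPM in the KO day 7 libraries. All KO libraries were below the WT libraries, and the lowest was the replicate 1 library that stood apart in its stem cell markers. The difference did not pass the test (−0.55, 95% interval −1.11 to 0.01, adjusted p = 0.175), and without that library it was −0.25 (adjusted p = 0.601). On day 14 Smad6 had 9.52, 13.2 and 14.5 CPM in WT and 9.65, 15 and 19.6 CPM in KO, which overlapped (0.24, −0.32 to 0.80, adjusted p = 0.681).

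The start of Smad6 is shown because its window held the rarest motifs searched, those of a BMP response element. The stretch covers 254 bases at chr9:64022056-64022309 on the minus strand of GRCm38.p6, up to 3 bases past the start. The capitals mark 19 bases formed by 2 overlapping matches, the BMP response element (GNCGNC, then any 5 bases, then GTCT), present in 0.667% of all windows, and GTCTAGAC, a palindromic SMAD box, present in 0.213%. Among the 6 members with a window only Smad6 held either of them.
Smad6: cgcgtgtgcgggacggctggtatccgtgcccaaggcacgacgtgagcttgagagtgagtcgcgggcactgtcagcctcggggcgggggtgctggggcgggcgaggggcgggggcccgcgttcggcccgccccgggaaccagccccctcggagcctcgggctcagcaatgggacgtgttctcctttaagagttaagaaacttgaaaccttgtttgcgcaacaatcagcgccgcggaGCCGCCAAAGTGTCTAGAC

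Smad7, on chromosome 18, did not pass the test on any day. Its day 7 levels were 41.2, 28.9 and 37.1 CPM in WT and 33.5, 36.3 and 40.5 CPM in KO (0.04, 95% interval −0.28 to 0.35, adjusted p = 0.9). On day 14 the difference was 0.06 (−0.26 to 0.38, adjusted p = 0.877). Neither day's interval reached the estimated change of Id1 or Id2 on the same day, but the difference between these genes was not tested.

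Bambi, also on chromosome 18, encodes a transmembrane pseudoreceptor that lacks the kinase domain and dampens signalling of the TGF-beta family. Its day 7 levels were 11.1, 9.71 and 14.7 CPM in WT and 2.36, 3.40 and 4.19 CPM in KO. The KO day 7 libraries were the lowest of all 18 for this gene. The fall of 1.83 on the log2 scale was the largest change of any member on any day (−1.83, SE 0.34, adjusted p = 0.00139), and it was called with each of the 6 libraries left out in turn (−2 to −1.63, adjusted p from 0.00284 to 0.0114). On day 14 the levels were 23, 11.5 and 9.31 CPM in WT and 10.1, 8.89 and 9.04 CPM in KO. The groups then overlapped, and most of the difference in means came from 1 WT library (−0.62, SE 0.33, adjusted p = 0.285). Without that library, WT day 14 replicate 1, the day 14 value was −0.14 (adjusted p = 0.849).

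Markers of several cell types, 2 of them of the crypt base, were lower in KO on day 7, as were Bambi and Smad5. The summed level of 5 Paneth cell markers was 7378 to 12583 CPM in WT day 7 libraries and 1237 to 3344 CPM in KO day 7 libraries, and 5 of 5 markers fell. That of the 5 stem cell markers was 1230 to 1630 CPM in WT and 298 to 779 CPM in KO. All 5 had values below 0 and 3 were called. No marker of either list was at 0 in any library. The goblet cell sum was also lower on day 7, at 12518 to 14954 CPM in WT and 8989 to 11484 CPM in KO. So was the tuft cell sum, at 59.0 to 66.5 CPM in WT and 22.9 to 52.3 CPM in KO. On day 14 the Paneth sum was 7795 to 17599 CPM in WT and 4683 to 6325 CPM in KO, with no overlap, although 1 of 5 markers passed the test, while the Bambi libraries of KO and WT overlapped. The stem cell sum was then 1489 to 1690 CPM in WT and 1186 to 1408 CPM in KO, with values below 0 for 4 of 5 markers and 1 called. Across the 18 libraries the log2 level of Bambi followed the Paneth sum with Pearson's r of 0.953, and with 0.893 when each library was taken relative to its group mean (0.928 and 0.903 without the KO day 7 library of replicate 1). Smad5 followed the stem cell sum with r of 0.864, but with 0.439 relative to group means (0.877 and 0.439 without that library). Smad5 also followed the Paneth sum with r of 0.810, and with 0.223 relative to group means (0.718 and 0.0715 without that library). Bambi followed the stem cell sum with r of 0.799, and with 0.286 relative to group means (0.671 and −0.0785 without that library). These are descriptions over libraries that share genotype and day. In bulk crypts, fewer cells of a type and less RNA of a gene per cell cannot be told apart, and the part of these markers in the falls of Bambi and Smad5 was not tested.

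**Figure D3:**
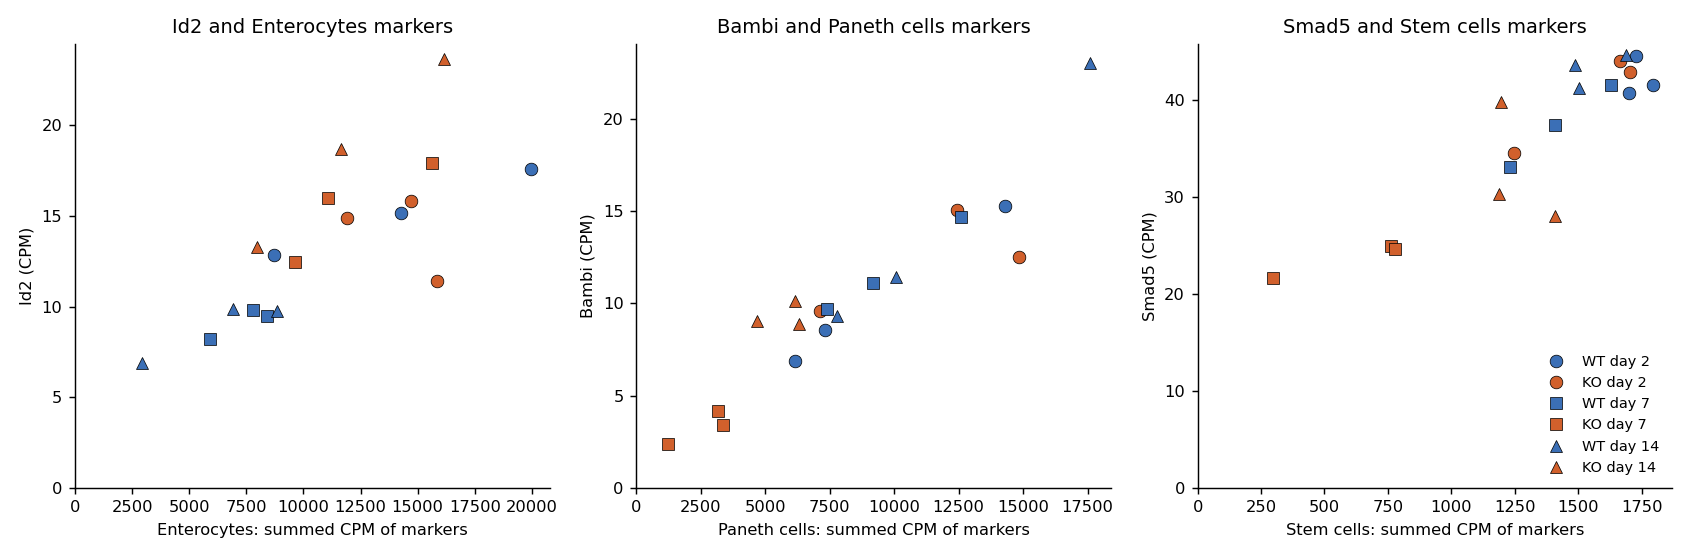
Each panel plots the CPM of 1 member (y axis) against the summed CPM of the markers of 1 cell type (x axis), for Id2 and enterocytes, Bambi and Paneth cells, and Smad5 and stem cells, with 1 point per library, color for genotype and symbol for day. Bambi rises with the Paneth cell sum over all groups, and the 3 KO day 7 libraries are lowest in both Bambi (2.36 to 4.19 CPM) and the Paneth cell sum (1237 to 3344 CPM).

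The Id proteins are helix-loop-helix proteins without a DNA-binding region that sequester E proteins, and their genes are among the most direct readouts of BMP signalling. Id1, at chr2:152736251-152737410, had 27.5, 33.7 and 30.9 CPM in WT and 54.7, 49.5 and 43.5 CPM in KO on day 7. All KO libraries were above all WT libraries, with a gap wider than the range within WT. The rise was 0.68 on the log2 scale (SE 0.18, 1.61-fold, adjusted p = 0.0135). Id3, at chr4:136143497-136145755, had 31.5, 26.5 and 33.0 CPM in WT and 49.9, 52.6 and 40.1 CPM in KO. It rose by 0.65 (SE 0.18, 1.57-fold, adjusted p = 0.0201), again with no overlap.

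Id2, at chr12:25093799-25097140, had 9.82, 9.46 and 8.19 CPM in WT and 17.9, 16 and 12.5 CPM in KO on day 7. The WT libraries were close together and the lowest KO library was clearly above them (0.76, SE 0.21, 1.69-fold, adjusted p = 0.015). The calls of all 3 Id genes on day 7 were near the threshold. Without the KO day 7 library of replicate 1 they became 0.62 for Id1 (adjusted p = 0.0561), 0.66 for Id2 (adjusted p = 0.0685) and 0.63 for Id3 (adjusted p = 0.0587), so that 2 members, Bambi and Smad5, were still called. Id1 also lost its call without WT replicate 1 (adjusted p = 0.0664), Id2 without WT replicate 3 (0.0664), and Id3 without KO replicate 2 (0.0806) or WT replicate 2 (0.0904).

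On day 14 Id2 had 6.87, 9.87 and 9.73 CPM in WT and 13.3, 23.7 and 18.7 CPM in KO. Its KO libraries were spread widely but all lay above WT, and Id2 was 2.08-fold higher (1.06, SE 0.21, adjusted p = 0.00299). The call held with each library left out (0.86 to 1.26, adjusted p from 0.00143 to 0.0225). Id1 had 23.9, 27.7 and 27.3 CPM in WT and 29.5, 35.2 and 48.7 CPM in KO (0.52, SE 0.18, adjusted p = 0.093). Id3 had 26.3, 33.9 and 30.9 CPM in WT and 37.8, 39.7 and 57.7 CPM in KO (0.57, SE 0.19, adjusted p = 0.069). In both genes all KO libraries were above all WT libraries, and 1 KO library was much higher than the other two. With the replicate block within each day, which was added after seeing the data, both passed (0.50, adjusted p = 0.0354 for Id1, and 0.55, adjusted p = 0.0284 for Id3). Without it, Id3 passed with DESeq2 (0.58, adjusted p = 0.043) and, like Id1, without the filter on low counts (adjusted p = 0.015 for Id3 and 0.0336 for Id1).

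Of the RefSeq start of Id2, an 89-base stretch at chr12:25096254-25096342 on the minus strand of GRCm38.p6 is shown, since Id2 was the one Id gene with matches among those that had a window. It runs from 250 to 162 bases before that RefSeq start. The whole stretch lies inside the counted Id2 gene, which begins at 25097140 on this strand. The capitals mark GGCGCC and the E-box CAGCTG.
Id2: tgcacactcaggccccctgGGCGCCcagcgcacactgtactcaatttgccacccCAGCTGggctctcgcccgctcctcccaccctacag

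**Figure D4:**
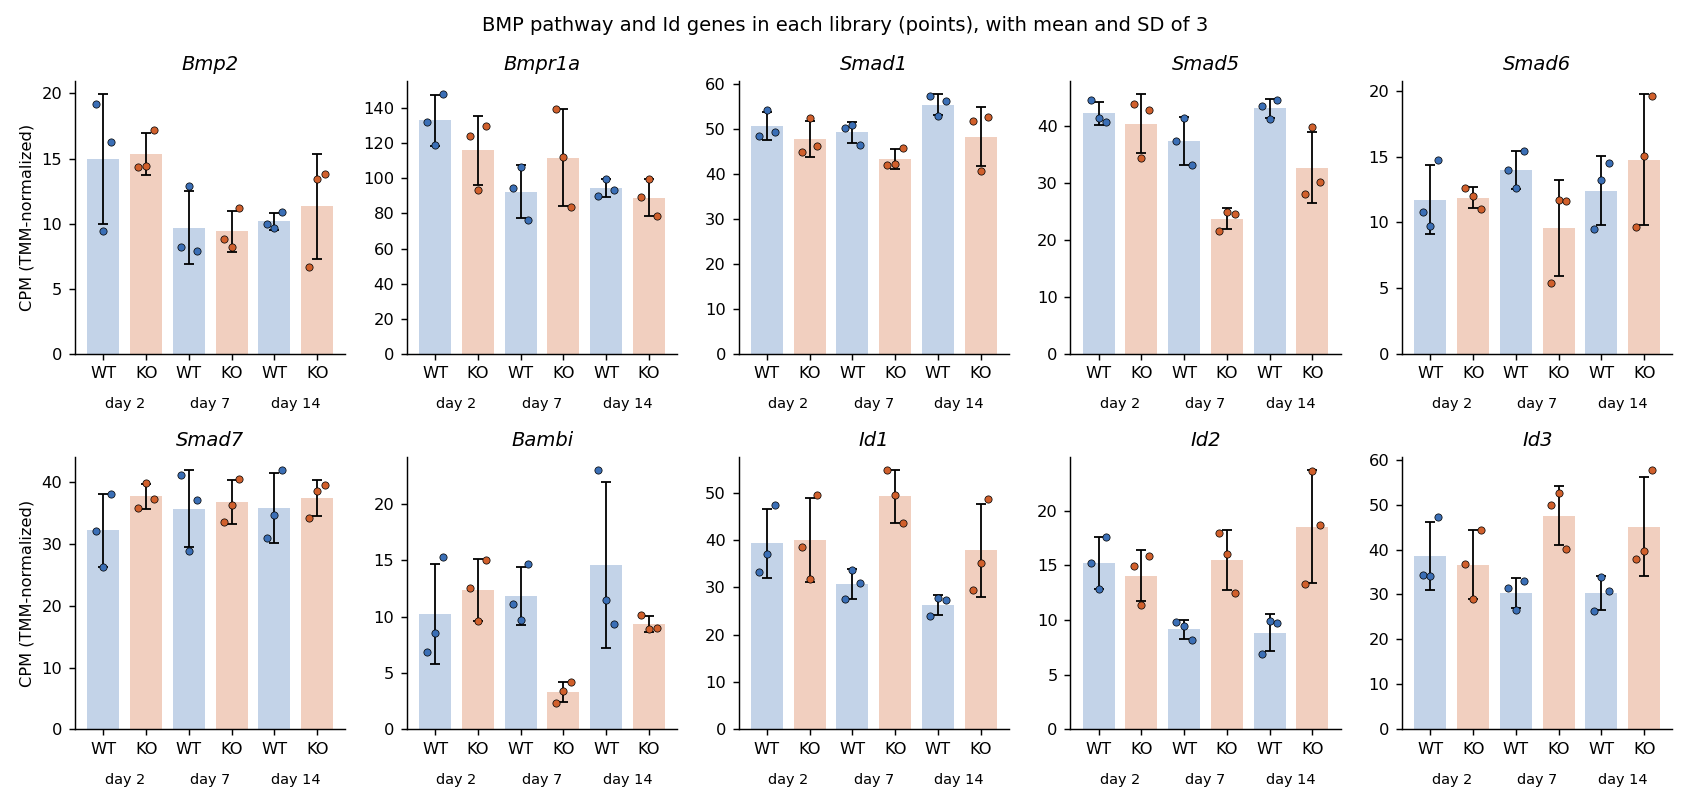
Each panel shows 1 member, with the level in TMM-normalized CPM on the y axis and the 6 groups on the x axis. Points are libraries, bars are means of 3 and lines are SDs. Id1, Id2 and Id3 are separated between KO and WT on days 7 and 14 but not on day 2, and Bambi is lowest in the 3 KO day 7 libraries.

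Enteroendocrine markers rose with the Id genes, and the enterocyte sum was higher in KO on day 7. The summed level of 6 enterocyte markers was 5890 to 8382 CPM in WT and 9630 to 15630 CPM in KO on day 7. There 5 of the 6 had values above 0, and Fabp1 was called higher and Lct, lactase, lower. On day 14 it was 2928 to 8844 CPM in WT and 7981 to 16140 CPM in KO, which overlapped, and Sis, sucrase-isomaltase, alone passed the test, higher in KO. All 8 enteroendocrine markers tested (Chga, Chgb, Neurod1, Neurog3, Tph1, Gip, Sct and Cck) rose on both days, and their sum went from 288 to 312 CPM in WT day 7 libraries to 648 to 804 CPM in KO, and from 247 to 328 CPM in WT day 14 libraries to 765 to 922 CPM in KO. None of these markers was a member of the BMP list. Across the 18 libraries Id2 followed the enterocyte sum with r of 0.832 (0.791 relative to group means), Id1 with 0.681 (0.408) and Id3 with 0.562 (0.350). With the enteroendocrine sum r was 0.748 for Id2, 0.564 for Id1 and 0.725 for Id3, and 0.350, 0.141 and 0.210 relative to group means. The crypt epithelium sum, 4731 to 5388 CPM in WT and 4862 to 6764 CPM in KO on day 7, also followed the Id genes, with r of 0.579 for Id2, 0.625 for Id1 and 0.462 for Id3, and of 0.718, 0.685 and 0.637 relative to group means. Without the KO day 7 library of replicate 1, r of Id2, Id1 and Id3 was 0.822, 0.659 and 0.527 with the enterocyte sum, 0.727, 0.497 and 0.693 with the enteroendocrine sum and 0.556, 0.605 and 0.427 with the crypt epithelium sum. Relative to group means these were 0.773, 0.369 and 0.334, then 0.297, 0.0871 and 0.189, and then 0.688, 0.664 and 0.640. For the other 10 marker lists r relative to group means lay between −0.572 (Id2, B and plasma cells) and 0.556 (Id1, fibroblasts), and between −0.563 and 0.563 for the same pairs without that library. The sum of 8 markers of T cells and other leukocytes was 96.8 to 142 CPM in WT and 148 to 239 CPM in KO on day 14, with no overlap, although none of the 8 was called (2 had an unadjusted p under 0.05, and all 8 had values above 0). Endothelium, in which Id1 and Id3 are abundant, gave a summed level of 3.00 to 3.99 CPM in WT and 2.95 to 6.51 CPM in KO on day 7 for 6 markers, of which Cdh5, Cldn5 and Kdr were at 0 in some libraries. Of the 4 endothelial markers tested, Pecam1 rose on day 7 (1.29, SE 0.36, adjusted p = 0.0188) and the other 3 had values below 0. The part of any of these cell types in the rise of the Id genes was not tested.

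The KO effect was next compared between days within 1 model, in which the contrasts of days 7 and 2 and of days 14 and 7 share the day 7 libraries. From day 2 to day 7, Bambi was the 1 member whose KO effect changed (−2.11, SE 0.47, adjusted p = 0.0164), when 4.37% of all genes passed this test, 3.04% toward lower. Its KO effect went from 0.27 on day 2 to −1.83 on day 7. Without the KO day 7 library of replicate 1 the change was −1.91 with an adjusted p of 0.0517. The change in effect was 0.66 for Id1 (adjusted p = 0.171), 0.87 for Id2 (adjusted p = 0.0968), 0.72 for Id3 (adjusted p = 0.133) and −0.59 for Smad5 (adjusted p = 0.0861), each with an unadjusted p under 0.05, as had 18.1% of all genes. With a replicate block within each day Id2 passed (0.86, adjusted p = 0.0115), and without the filter on low counts Id2 (adjusted p = 0.0283) and Id3 (adjusted p = 0.0432) passed, so the calls for the Id genes depended on these settings.

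From day 7 to day 14 the quasi-likelihood test called 0 members, DESeq2 called 0, and 1 member had an unadjusted p under 0.05. Over all genes 0% were called and 4.46% had an unadjusted p under 0.05. That member was Bambi, with a change in effect of 1.21 (95% interval 0.22 to 2.20, adjusted p = 0.999). The changes were −0.16 for Id1 (−0.70 to 0.38), 0.30 for Id2 (−0.31 to 0.91) and −0.08 for Id3 (−0.63 to 0.47). These intervals include both no change and a loss or gain of a large part of the day 7 effect.

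Within WT, the Id genes had their highest levels on day 2, although no difference of a member between WT days passed the quasi-likelihood test. Id2 in WT had 15.2, 12.9 and 17.6 CPM on day 2, against 8.19 to 9.82 CPM on day 7 and 6.87 to 9.87 CPM on day 14. All day 2 libraries were above all later WT libraries. In KO the day 2 libraries had 14.9, 11.4 and 15.8 CPM, and the KO day 7 libraries (12.5 to 17.9 CPM) overlapped them. Id1 in WT had 33.3, 37.1 and 47.4 CPM on day 2, which overlapped day 7 (27.5 to 33.7 CPM) but not day 14 (23.9 to 27.7 CPM). Id3 in WT had 34.2, 34.2 and 47.3 CPM on day 2, above day 7 (26.5 to 33.0 CPM) and day 14 (26.3 to 33.9 CPM). In KO on day 2, Id1 had 31.8 to 49.6 CPM and Id3 28.9 to 44.3 CPM. The KO day 7 libraries of Id1, Id2 and Id3 thus lay above those of WT day 7 but overlapped the day 2 libraries of either genotype.

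In the tests between WT days, the day 2 libraries are shared by the first 2 comparisons. From day 2 to day 7 the quasi-likelihood test called 0 members and 0.553% of all genes, and DESeq2 called 1 member and 6.82% of all genes, while 3 members and 22.4% of all genes had an unadjusted p under 0.05. These were Id2 (−0.73, SE 0.21, adjusted p = 0.0703), Bmpr1a (−0.53, SE 0.17, adjusted p = 0.0986) and Bmp2 (−0.64, SE 0.26, adjusted p = 0.165). From day 2 to day 14 it again called 0 members and 1.61% of all genes, and DESeq2 1 member and 6.43%, with 4 members and 20% of all genes at an unadjusted p under 0.05. They were Id2 (−0.77, adjusted p = 0.054), Id1 (−0.58, adjusted p = 0.092), Bmpr1a (−0.49, adjusted p = 0.127) and Bmp2 (−0.56, adjusted p = 0.245). Id2 was the member that DESeq2 called in both (adjusted p = 0.0227 and 0.013). From day 7 to day 14 neither tool called a member, no member had an unadjusted p under 0.05 (5.18% of all genes did), and 0.0796% of all genes were called. The summed level of the enterocyte markers in WT was 8723 to 19943 CPM on day 2 and 5890 to 8382 CPM on day 7. From day 2 to day 7 in WT, values were below 0 for 6 of 6 enterocyte, 8 of 8 T cell and leukocyte, 7 of 8 enteroendocrine and 7 of 7 crypt epithelium markers, of which 0 were called and 4, 6, 3 and 2 had an unadjusted p under 0.05. They were also below 0 for 7 of 8 fibroblast markers, with 0 called and 1 at an unadjusted p under 0.05. Values were above 0 for 5 of 5 smooth muscle and 4 of 5 Paneth cell markers. The part of these cell types in the WT time course of Id2 was not tested.

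The rest of the pathway was read from a list of 62 further genes, also chosen with earlier results known, of which 42 had counts enough for testing. On day 2 the quasi-likelihood test called 0 of 42, DESeq2 called 0, and 1 had an unadjusted p under 0.05. On day 7 it called 12 of 42, 3 higher and 9 lower, and on day 14 it called 4 of 42, 1 higher and 3 lower. The background was the 17.3% and 7.92% of all genes given above. The median log2 fold change of the 42 was −0.15 on day 7 and −0.13 on day 14, and that of all genes 0.02 and 0.00.

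Among these genes Id4, the remaining Id gene, changed the most on day 7. It had 4.07, 2.68 and 3.85 CPM in WT and 17.5, 13 and 10.9 CPM in KO, a 3.85-fold rise (1.95, SE 0.25, adjusted p = 3.79e-05). On day 14 it had 4, 2.65 and 4.03 CPM in WT and 11.2, 9.90 and 7.76 CPM in KO, a 2.73-fold rise (1.45, SE 0.26, adjusted p = 0.00144). On both days every KO library was well above every WT library. Id4 shares 171 and 82 exon bases with 2 genes on the opposite strand, Gm49291 and A330033J07Rik, whose reads there could not be told apart from its own without strand. Their counts were 5 to 94 and 5 to 89 over the libraries, where those of Id4 were 42 to 393. All 4 Id genes were thus higher in KO on day 7.

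Of the 7 targets and partners tested, 6 had values below 0 on day 7, and Id4 was called higher and 2 others lower. Atoh8, a BMP-responsive helix-loop-helix factor gene, fell to 0.456 CPM or less in KO day 7 libraries from 0.895 CPM or more in WT (−1.69, SE 0.34, adjusted p = 0.00202), at counts of only 6 to 38. Tcf12, which encodes an E protein bound by Id proteins, fell by 0.48 on the log2 scale on day 7 (−0.48, SE 0.12, adjusted p = 0.0119). Tob1, an antiproliferative gene whose product restrains BMP-activated SMADs, had 59.3, 54.1 and 51.7 CPM in WT and 173, 120 and 108 CPM in KO on day 7. It rose 2.43-fold (1.28, SE 0.20, adjusted p = 0.000254), with a wide gap between the groups.

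The BMP ligand, receptor and co-receptor genes that passed the test were lower in KO. Bmp7 had 8.81, 8.31 and 11.8 CPM in WT and 3.56, 5.02 and 5.02 CPM in KO on day 7, and it fell on both days, to 0.470 of WT on day 7 (−1.09, SE 0.19, adjusted p = 0.000725) and to 0.603 of WT on day 14 (−0.73, SE 0.19, adjusted p = 0.0236). The day 14 call was lost in 4 of the 6 fits that left out a library (adjusted p up to 0.119). Bmp3, whose product opposes other BMPs, fell on day 7 (−0.72, SE 0.23, adjusted p = 0.0375), a call lost in 4 of the 6 fits that left out a library (adjusted p up to 0.182). Of the activin and BMP type II receptor genes, Acvr2b fell on day 7 (−0.80, SE 0.19, adjusted p = 0.00657) and Bmpr2 on day 14 (−0.45, SE 0.13, adjusted p = 0.0387), a call that was lost with each of the 6 libraries left out in turn (adjusted p from 0.0531 to 0.15). The BMP co-receptor genes Rgma (−1.44, SE 0.43, adjusted p = 0.0254, at 5 to 24 counts on day 7 and with up to 5 counts of A730056A06Rik on the opposite strand of a shared stretch) and Rgmb (−0.62, SE 0.17, adjusted p = 0.0144) fell on day 7, and lost their calls in 4 and 2 of these 6 fits.

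Twsg1, whose product binds BMPs outside the cell, fell on both days (−0.42, adjusted p = 0.0405 on day 7, and −0.51, adjusted p = 0.0244 on day 14), but on each day the call was lost in 5 of the 6 fits that left out a library. On the TGF-beta side, Smad3 fell on day 7 (−0.36, adjusted p = 0.0488, lost in 4 of 6 such fits) and the receptor gene Tgfbr2 rose 1.55-fold (0.63, adjusted p = 0.014). On day 7 the calls of Id4, Tob1, Bmp7 and Atoh8 held with each library left out. The other 8 each lost theirs at least once, and 6 of 42 were called without KO replicate 1 (5 of them among the 12) or without WT replicate 1 (6 of them among the 12). On day 14 7 of 42 were called with the replicate block within each day, when 9.86% of all genes were called. Without the block, 1 of 42 was called without KO replicate 1, and 2 without KO replicate 2 or any WT replicate.

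**Figure D5:**
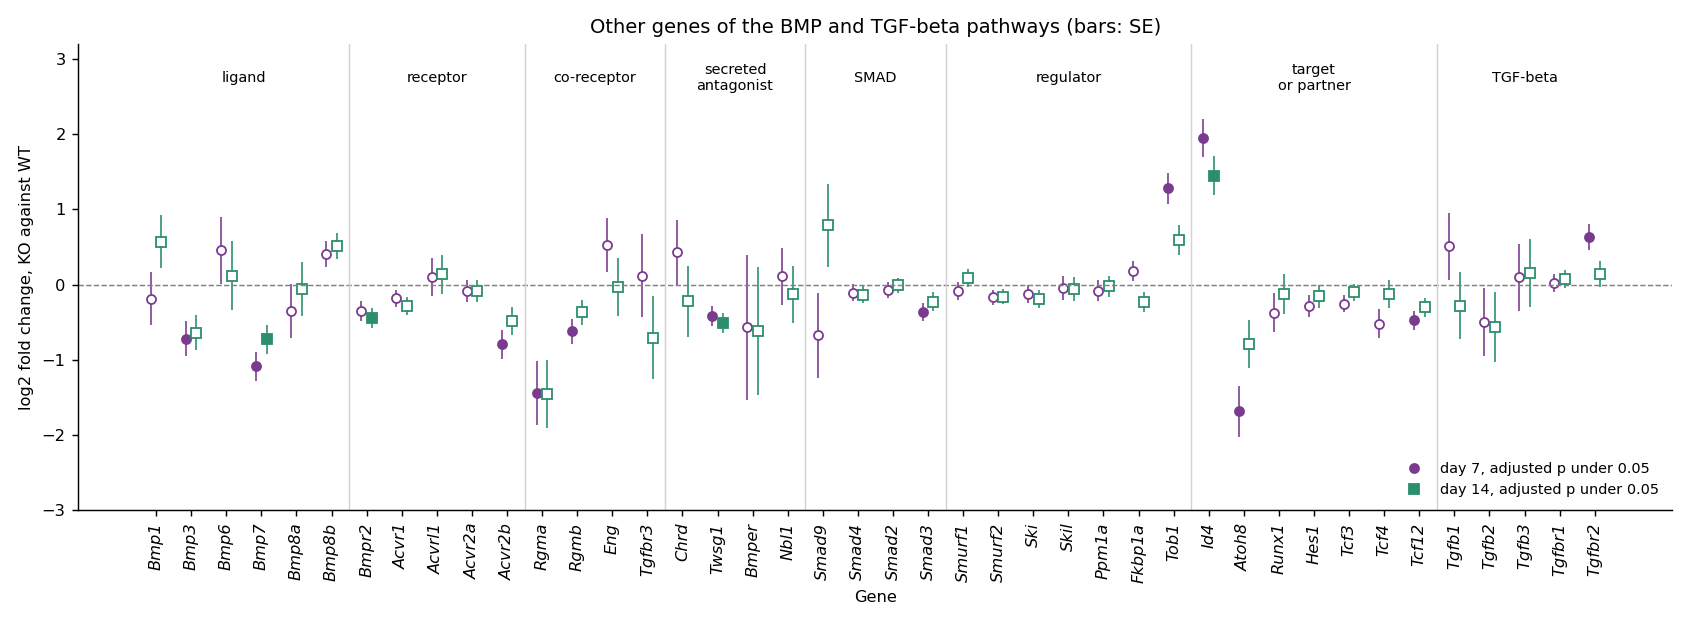
The y axis gives the log2 fold change of KO against WT, with SEs as bars, for the 42 further pathway genes on the x axis, grouped by role. Circles are day 7 and squares day 14, filled where the adjusted p was under 0.05. Id4 and Tob1 are highest on day 7, and Atoh8, Rgma and Bmp7 are lowest among the filled points.

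Most secreted antagonists could not be assessed. Nog and Grem1, which are made by the mesenchyme below the crypts, and Bmp4, its main ligand, did not reach the count minimum. In all, 9 of the 13 listed antagonists were not tested. The 8 fibroblast markers summed to 25.6 to 199 CPM over the libraries, and on day 7 to 28.5 to 65 CPM in WT and 48.4 to 92.3 CPM in KO. On day 7 all 8 had values above 0 and 1, Vim, was called.

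The Id genes varied together from library to library. Over the 18 libraries, log2 CPM of Id1 and Id3 had r of 0.856, Id2 and Id3 of 0.789, and Id1 and Id2 of 0.744. Relative to group means these were 0.837, 0.574 and 0.610. Smad1 ran against Id2 (−0.633, and −0.696 relative to group means). Smad5 and Bambi, which both fell on day 7, had r of 0.746 over all libraries but −0.01 relative to group means. Of 17079 genes with a mean of at least 1 CPM, those most like Id1 were Emg1 (0.885), Gm15491 (0.884) and Srxn1 (0.879). Those most like Id2 were Rhod (0.927), Gm44805 (0.912) and Apoc2 (0.911), and those most like Id3 were Eipr1 (0.927), Coq4 (0.906) and Ckb (0.885). None of the 9 was a member or on the list of further pathway genes.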

How the data were processed

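Libraries were ribosomal RNA-depleted total RNA of small intestinal crypts, sequenced as paired-end reads. The table of fragment counts deposited by the authors (GENCODE M23 per the file header, mm10) was made from STAR 2.7.3 alignments with featureCounts 1.6.4. Fragments were counted without strand, once for each gene they overlapped, and multimapping fragments were left out. Library sex is not given in the labels. The 20 genes that the study removed as sex-dependent were left out before normalization. With edgeR 4.0.16 (limma 3.58.1, R 4.3.3), filterByExpr kept 21349 genes, counts were TMM-normalized, and a robust quasi-likelihood model was fitted to all 18 libraries. The contrasts were KO against WT per day, pairs of days within WT, and KO effects between days. Correlations used log2 CPM (prior count 2). No 2 libraries were identical, and 0 table columns were left unused. Total counts were 12844642 to 31493484 per library, and how far they limit precision at low counts was not measured. Alternatives were DESeq2 1.42.0, other scalings and filters, fewer groups, a replicate block, and leaving out each library. A replicate block within each day was added after seeing the data: deviations of same-numbered KO and WT libraries from their group means were correlated above 0.1 in 3 of 3 pairs on day 14 (0.164 to 0.332), 2 of 3 on day 2 and 1 of 3 on day 7, a pairing read from the data and not from the labels. The fit was tested on simulated data. The 10 members, the 62 further pathway genes and the marker lists were chosen with earlier results of these data known. Named were the members, further pathway genes called in KO against WT, the 3 genes most like each of Id1, Id2 and Id3, and Prmt1. Sequences are from RefSeq (GRCm38.p6). Of the marker lists, no crypt epithelium, smooth muscle, T cell, macrophage or B cell marker was called on days 7 or 14, while 3 of 5 goblet cell, 1 of 4 tuft cell, 1 of 8 fibroblast and 1 of 4 tested endothelial markers were called on day 7, and 1 of 5, 0, 0 and 0 on day 14.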

Additional observations from a re-analysis of the deposited data

Results flagged for a closer look

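The KO effect differed between days 7 and 2 by a test of the difference itself (edgeR's quasi-likelihood test, Benjamini-Hochberg values over all genes) for 1 of the 10 members and for 4 of the 42 further pathway genes tested, when 4.37% of all genes passed. For Bambi the day 7 effect minus the day 2 effect was −2.11 on the log2 scale (SE 0.47, adjusted p = 0.0164). It was −1.34 for Bmp7 (SE 0.27, adjusted p = 0.00797) and −1.81 for Atoh8 (SE 0.47, adjusted p = 0.0337). It was 1.25 for Tob1 (SE 0.28, adjusted p = 0.0163) and 1.59 for Id4 (SE 0.36, adjusted p = 0.0171). Without the KO day 7 library of replicate 1 the values were −1.91 for Bambi (adjusted p = 0.0517), −1.18 for Bmp7 (0.029), −1.62 for Atoh8 (0.107), 1.03 for Tob1 (0.049) and 1.40 for Id4 (0.0531). Atoh8 lost its call in 8 of 12 fits that left out a library. The day 2 effects of these genes lay between 0.03 for Tob1 and 0.36 for Id4, and none passed the test on that day. No such difference between days 14 and 7 passed for any gene tested.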

How the results depend on the processing

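Over the 9 other ways of analysing KO against WT that left out no replicate, the 5 members called on day 7 and Id2 on day 14 stayed called. The number of members called on day 14 was 1 and became 2 with DESeq2 and 3 without the filter on low counts. It became 2 when genes under a mean count of 50 were left out. With a replicate block within each day it became 3, and the further pathway genes called on that day went from 4 to 7. The block also took the share of all genes called from 7.92% to 9.86%. For WT day 7 against day 2 the number of members called was 0. It became 1 with DESeq2, 2 without the filter and 1 with only the groups compared. For WT day 14 against day 2 it was 0 and became 1 with DESeq2, 2 without the filter and 1 with the mean count of 50. DESeq2 also took the share of all genes from 0.553% to 6.82% and from 1.61% to 6.43% in these comparisons. For the change of the KO effect from day 2 to day 7 the number of members called was 1 and became 3 without the filter. It became 2 with the replicate block within each day, which added Id2 (adjusted p = 0.0115). The cause of these moves was not tested. With each library left out in turn, the number of members called ranged from 2 to 5 on day 7, from 1 to 2 on day 14, from 0 to 1 for WT day 14 against day 2 and from 0 to 2 for the change of effect from day 2 to day 7. The number of further pathway genes called ranged from 6 to 11 on day 7 and from 1 to 3 on day 14. For these fits, and for settings without a share above, the share of all genes called is not given. These counts therefore describe the settings and not the members alone.

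Signs turned for small differences that were called in no setting, and only when a library was left out. On day 2 the values ranged from −0.16 to 0.18 for Id1, −0.22 to 0.018 for Id2, −0.24 to 0.091 for Id3, −0.12 to 0.042 for Smad5, −0.11 to 0.20 for Smad6 and −0.20 to 0.26 for Bmp2. On day 7 they ranged from −0.15 to 0.22 for Bmp2 and −0.091 to 0.15 for Smad7. On day 14 they ranged from −0.011 to 0.43 for Bmp2, −0.16 to 0.0089 for Bmpr1a, −0.012 to 0.48 for Smad6 and −0.027 to 0.20 for Smad7. Deviations of same-numbered KO and WT libraries were correlated at 0.164 to 0.332 on day 14. Between days 8 of 36 same-numbered pairs had a correlation over 0.1, up to 0.383. With 1 replicate block over all days 5 members were called on day 7 and 1 on day 14, as without it, and 11 further pathway genes on day 7, without Twsg1 (adjusted p = 0.0569). Of the 9 other ways, Smad3 lost its day 7 call in 4 (adjusted p up to 0.117) and Twsg1 in 3 (up to 0.076). Low counts limit Atoh8 and Rgma, with at most 38 and 24 per library on day 7, and left 20 listed pathway genes untested. The part of depth in these low counts was not tested.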
